A study of Homo sapiens with 5 samples.

Results

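Peaks of ACTL6A, BRG1 and NRF2 were described at 8 genes of NADPH metabolism in SNU638 cells: PGD, TALDO1, TKT, ME1, IDH1, IDH2, MTHFD1 and MTHFD2. The genes were chosen by name for their place in metabolism, from 19689 genes with a protein-coding transcript in GENCODE release 44. Every peak that touched one of these genes, or the 10 kb to each side of it, was taken. This gave 45 peaks of the 83512 in all lists, 12 of 23917 for ACTL6A, 26 of 48793 for BRG1, 7 of 9045 for NRF2, 0 of 11 for IgG 1 and 0 of 1746 for IgG 2.

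SNU638 is an established human gastric cancer cell line, and no treatment, knockdown or other condition was compared in these libraries. CUT&Tag directs the Tn5 transposase to an antibody on chromatin, so that adapters are inserted around the bound protein. Antibodies to ACTL6A, BRG1 or NRF2 were used in 1 library each, and IgG, which has no chromatin target, in 2 libraries. With no replicate of any antibody, no difference between lists was tested and no p-value is given. The IgG lists were very unequal in size, and the labels do not say whether they came from separate cultures. The lists hold no reads, so library depth is not known from them, and they hold no expression, so the gastric identity of the cells was not checked.

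NADPH carries the electrons that cells use to reduce oxidized glutathione and thioredoxin and to build lipids. In the pentose phosphate pathway PGD, 6-phosphogluconate dehydrogenase, forms NADPH in the oxidative branch. TALDO1 and TKT, transaldolase and transketolase, only rearrange the sugars of the non-oxidative branch and make no NADPH themselves. ME1, the cytosolic malic enzyme, makes it from malate, and the isocitrate dehydrogenases IDH1 (cytosol and peroxisomes) and IDH2 (mitochondria) make it from isocitrate. MTHFD1 in the cytosol and MTHFD2 in mitochondria oxidize one-carbon units carried by folate, and MTHFD2 is known chiefly as an NAD-linked enzyme. NRF2 is the transcription factor of the antioxidant response and binds the antioxidant response element (ARE), and PGD, TALDO1, TKT and ME1 are textbook NRF2 target genes. BRG1 is an ATPase of the BAF chromatin remodeling complex, and ACTL6A is an actin-like subunit of it.

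The reference sequence just upstream of 5 starts is printed because these genes differed in the lists that had a peak there. Each is 200 bases of GRCh38 in the direction of the gene, taken nearest to the start of the MANE Select transcript (the representative transcript of the annotation) without touching an exon of a protein-coding gene. Capitals mark the ARE core TGACNNNGC, in PGD as its reverse complement. The PGD and IDH1 stretches lay wholly inside peaks of all 3 antibodies. Those of ME1 and IDH2 lay wholly inside a BRG1 peak, as did 196 bases of that of TKT, and none of these 3 was touched by an ACTL6A or NRF2 peak.
PGD, chr1:10398844-10399043, plus strand: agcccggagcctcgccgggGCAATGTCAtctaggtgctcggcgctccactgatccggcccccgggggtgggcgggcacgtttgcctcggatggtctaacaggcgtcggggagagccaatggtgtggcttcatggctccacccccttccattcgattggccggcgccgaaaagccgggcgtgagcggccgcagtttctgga
IDH1, chr2:208255114-208255313, minus strand: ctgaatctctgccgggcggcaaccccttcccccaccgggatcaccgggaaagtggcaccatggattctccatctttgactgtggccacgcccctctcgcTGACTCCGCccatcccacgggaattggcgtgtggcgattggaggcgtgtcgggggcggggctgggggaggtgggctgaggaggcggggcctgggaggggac
ME1, chr6:83431052-83431251, minus strand: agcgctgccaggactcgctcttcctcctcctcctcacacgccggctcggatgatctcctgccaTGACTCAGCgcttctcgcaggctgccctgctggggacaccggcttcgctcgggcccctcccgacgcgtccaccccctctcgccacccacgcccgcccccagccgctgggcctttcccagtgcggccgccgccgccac
TKT, chr3:53256053-53256252, minus strand: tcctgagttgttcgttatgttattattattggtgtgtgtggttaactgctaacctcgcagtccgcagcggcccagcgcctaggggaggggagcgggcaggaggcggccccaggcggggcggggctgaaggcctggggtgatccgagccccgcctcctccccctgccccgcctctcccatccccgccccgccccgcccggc
IDH2, chr15:90102478-90102677, minus strand: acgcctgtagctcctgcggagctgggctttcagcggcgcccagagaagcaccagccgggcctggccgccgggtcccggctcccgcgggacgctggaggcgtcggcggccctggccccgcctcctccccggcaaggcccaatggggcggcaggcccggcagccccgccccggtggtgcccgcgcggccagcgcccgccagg
The ME1 stretch held the core TGACTCAGC, which also holds the AP-1 site TGACTCA, in a BRG1 peak alone. The TKT and IDH2 stretches held no ARE core. A match to these letters is a description of the sequence and does not show that a protein bound it.

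At transcription starts, the 8 genes fell into only 2 of the 8 possible combinations of lists. PGD, TALDO1, IDH1, MTHFD1 and MTHFD2 had peaks of ACTL6A, BRG1 and NRF2 at a TSS, and TKT, ME1 and IDH2 had a BRG1 peak alone. A peak counted as being at a TSS when at most 1 kb separated it from where any protein-coding transcript of the gene begins. A BRG1 peak was at a TSS of 8 of 8 members, against 63.5% of all genes (Wilson 95% interval 62.9% to 64.2%). For ACTL6A it was 5 of 8 against 38.5% (37.8% to 39.2%), and for NRF2 5 of 8 against 28.1% (27.5% to 28.8%). All 3 antibodies had a peak at a TSS of 5 of 8 members, against 22.1% (21.5% to 22.7%) of all genes. These intervals cover counting error over genes only.

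The members' counts were also read among genes that had a BRG1 peak at a TSS, since all 8 did. Of the 12512 such genes, 58.0% had an ACTL6A peak there and 43.6% an NRF2 peak, against 5 of 8 members for each. The ACTL6A count was thus near the share of all genes with BRG1. Of the 7251 genes with both ACTL6A and BRG1 at a TSS, 60.0% also had NRF2, against 5 of 5 members. The combination of all 3 lists was shared by 4353 genes, and BRG1 alone by 4158 genes (21.1%), so neither combination is particular to these enzymes.

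Over the whole gene and 10 kb to each side, an ACTL6A peak was found at 7 of 8 members (66.9% of all genes), a BRG1 peak at 8 of 8 (82.7%) and an NRF2 peak at 5 of 8 (41.1%). IDH2 was the member with no ACTL6A peak in its region. The NRF2 peaks were at the same 5 genes that had one at a TSS, so widening the region added no gene. An IgG 2 peak was over 0 of 8 regions (1.67% of all genes).

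The lists held no read counts, but the number of fragments at each summit could be recovered from the deposited fold enrichment and p-value. Over all genes with a peak at a TSS, the highest such peak had a median of 10 fragments for ACTL6A, 22 for BRG1 and 19 for NRF2. The 3 members with BRG1 alone had 11 to 18 BRG1 fragments, below that median. The 5 with all 3 lists had 24 to 55, above it. The ranges did not overlap.

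Genes with fewer BRG1 fragments also had fewer peaks of the other antibodies. Among the 3105 genes whose highest BRG1 peak at a TSS had 11 to 18 fragments, 44.1% had an ACTL6A peak at a TSS, 26.3% an NRF2 peak and 17.2% both. Among the 4661 genes with 24 to 55 BRG1 fragments the shares were 72.7%, 60.1% and 50.1%. These ranges were set from the members' own values, and the part of BRG1 fragment number in the missing ACTL6A and NRF2 peaks was not tested.

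PGD lies on the plus strand of chromosome 1 (chr1:10398592-10420511, ENSG00000142657), with a MANE Select start at 10399064 and 13 exons. All 3 antibodies had a peak over this start. The ACTL6A peak (chr1:10398818-10399078) had its summit 124 bp upstream, with 16 fragments where 0.808 were expected, with a fold enrichment of 9.40 and 12.3 as its -log10 q. The BRG1 peak (chr1:10398467-10399598) had 55 fragments against 3.33 expected, a 12.93-fold enrichment and a -log10 q of 42.7, with its summit 173 bp upstream. The NRF2 peak (chr1:10398544-10399598) had 29 fragments against 4.24, a 5.72-fold enrichment and a -log10 q of 11.5, with its summit 292 bp upstream. Fold enrichments were not compared between lists, whose background levels differ.

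Within their lists these PGD peaks ranked high. By -log10 q the ACTL6A peak was in the highest 7.98% of its list, the BRG1 peak in the highest 3.13% and the NRF2 peak in the highest 17.7%. The NRF2 peak of PGD, at rank 1602, was the highest NRF2 peak among the 8 genes. The ACTL6A peak lay wholly inside the other two, which shared 1055 bp, the full width of the NRF2 peak. The ARE core of PGD, on the minus strand 197 bp upstream of the start, was 24 bp from the BRG1 summit, 73 bp from that of ACTL6A and 95 bp from that of NRF2. The PGD region also held a BRG1 peak across its far border (chr1:10430159-10431019, 27 fragments), at the start of the neighbouring gene CENPS, a centromere protein. It shared 220 bp with an ACTL6A peak that lay just beyond the border and was not counted.

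TALDO1 lies on the plus strand of chromosome 11 (chr11:747415-765012, ENSG00000177156), with a MANE Select start at 747464 and 8 exons. It had a peak of each antibody within 1 kb of a TSS, but these did not coincide. The BRG1 peak (chr11:746834-747625) covered the start and had 51 fragments against 3.27 expected, in the highest 4.10% of its list. The ACTL6A peak (chr11:746726-746899) ended 565 bp upstream of the start. It had 5 fragments against 0.449, a -log10 q of 2.12 and a place in the highest 74.3%, and shared 66 bp with the BRG1 peak. The NRF2 peak (chr11:747888-748646) lay in intron 1, from 424 bp downstream of the start. It had 19 fragments against 4.94, a 3.36-fold enrichment and a -log10 q of 3.35, in the highest 72.2% of its list, and it shared no base with a peak of either other antibody. Both the ACTL6A and the NRF2 peak of TALDO1 were the lowest in rank among the members with all 3 lists, and both were lost when the -log10 q had to reach 5 or the TSS distance was set to 250 bp.

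TALDO1 had more BRG1 peaks away from its starts than any other member. They lay in intron 1 (chr11:755473-755781, 15 fragments), intron 4 (chr11:762531-762976, 34 fragments), intron 5 (chr11:763422-763564, 13 fragments) and downstream of the gene (chr11:765206-765495, 31 fragments). The intron 4 peak held a second ACTL6A peak of the gene (chr11:762693-762870, 8 fragments), which it covered over all 178 bp, with summits 61 bp apart. An AP-1 site, the element bound by FOS and JUN proteins, lay in the BRG1 peak 38 bp from its summit and outside the ACTL6A peak. It is printed here, with the site in capitals, because this was the only site away from any annotated start where ACTL6A and BRG1 peaks of the 8 regions overlapped.
TALDO1 intron 4, chr11:762889-762915, plus strand: tggtcagagaTGACTCAgtggttctag

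TKT lies on the minus strand of chromosome 3 (chr3:53224712-53256052, ENSG00000163931), with a MANE Select start at 53256022 and 14 exons. BRG1 was the one antibody with a peak at a TSS (chr3:53255671-53256248). It had 18 fragments against 2.38 expected and a -log10 q of 7.93, with its summit 111 bp upstream, in the highest 35.5% of its list. The ACTL6A list had a weak peak in intron 1 (chr3:53254353-53254477), 1545 bp downstream of the start, with 6 fragments against 0.674. It overlapped no BRG1 peak and was counted at a TSS only with a distance of 3 kb. The nearest NRF2 peak was 91257 bp upstream of the start. Further BRG1 peaks with 7 to 11 fragments lay in intron 4 (chr3:53238359-53238597), in intron 8 (chr3:53230085-53230426) and downstream of the gene (chr3:53219955-53220187).

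ME1 lies on the minus strand of chromosome 6 (chr6:83210402-83431051, ENSG00000065833), is the longest of the 8 genes at 220650 bp, and has 1 annotated protein-coding start. The BRG1 peak over this start (chr6:83430870-83431495) had its summit 7 bp downstream, in the 5′ UTR of exon 1. It had 11 fragments against 0.462 expected, an 8.21-fold enrichment and a -log10 q of 9.80, in the highest 29.8% of its list. ACTL6A had a single peak, in intron 5 (chr6:83334094-83334298), 96834 bp downstream of the start, with 4 fragments against 0.182. The nearest NRF2 peak lay 206032 bp upstream of the start, the farthest among the members.

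The BRG1 peak of ME1 held 3 ARE cores, the most of any peak over the 8 regions. The core TGACTCAGC of the upstream stretch printed above was centred 133 bp upstream of the start and 140 bp from the BRG1 summit. The cores TGACGGTGC and TGACCCCGC lay in the 5′ UTR, 8 bp and 65 bp from the summit. No peak of the NRF2 list covered any of them.

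IDH1 lies on the minus strand of chromosome 2 (chr2:208236229-208266074, ENSG00000138413), with a MANE Select start at 208255071 and 10 exons. It had peaks of all 3 antibodies at each of 2 separate places. At the MANE Select start, ACTL6A (chr2:208254894-208255423) had 19 fragments against 1.12 expected, in the highest 6.64% of its list. BRG1 (chr2:208254894-208255510) had 32 against 1.88, in the highest 9.44%, and NRF2 (chr2:208255081-208255521) had 14 against 2.35, in the highest 60.4%. The ACTL6A and NRF2 summits lay 14 bp apart, 145 bp and 159 bp upstream of the start, and the BRG1 summit lay 11 bp upstream of it. The ARE core TGACTCCGC, centred 139 bp upstream, was 6 bp from the ACTL6A summit, 20 bp from that of NRF2 and 128 bp from that of BRG1. The start of IDH1-AS1, a long noncoding RNA gene, lay within 1 kb of these peaks, so they cannot be given to one of the 2 genes.

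The other place was the annotated protein-coding start of IDH1 farthest upstream, at 208266074, and the start of PIKFYVE, a phosphoinositide kinase gene, lay within 1 kb of these peaks as well. The peaks there had at least as many fragments as those at the MANE Select start, and these differences were not tested. ACTL6A (chr2:208265789-208266245) had 28 fragments against 1.14 and a fold enrichment of 13.57, and its rank of 402, in the highest 1.68%, was the highest ACTL6A rank among the 8 genes. BRG1 (chr2:208265844-208266535) had 46 against 2.23, in the highest 3.78%, and NRF2 (chr2:208265582-208266279) had 15 against 2.31, in the highest 50.7%. The ACTL6A and BRG1 summits lay 7 bp apart, and the NRF2 summit 184 bp from that of ACTL6A. An ARE core here lay 33 bp from the ACTL6A summit and 40 bp from the BRG1 summit, in peaks of all 3 lists, and is printed with that of MTHFD2 below. Among the region's remaining peaks, a BRG1 peak lay in intron 1 at further annotated protein-coding starts of IDH1 (chr2:208254219-208254491, 13 fragments). The others were an ACTL6A and a BRG1 peak with 3 fragments each that overlapped nothing (chr2:208271996-208272177 and chr2:208227994-208228166).

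IDH2 lies on the minus strand of chromosome 15 (chr15:90083045-90102477, ENSG00000182054), with a MANE Select start at 90102468 and 11 exons. Its only peaks were those of BRG1. The peak over the start (chr15:90102275-90102860) had its summit 46 bp downstream, in the 5′ UTR of exon 1, with 15 fragments against 1.43 expected and a -log10 q of 8.39, in the highest 33.9% of its list. The start of IDH2-DT, a noncoding RNA gene, lay within 1 kb of it. Peaks with 13 and 6 fragments lay in intron 5 (chr15:90087533-90087708) and downstream of the gene (chr15:90079999-90080143). The nearest ACTL6A peak was 55556 bp and the nearest NRF2 peak 130933 bp upstream of the start. The cytosolic enzyme gene IDH1 and the mitochondrial one IDH2 thus differed in the ACTL6A and NRF2 lists, and this difference rests on 1 library for each antibody.

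MTHFD1 lies on the plus strand of chromosome 14 (chr14:64388031-64463457, ENSG00000100714), with a MANE Select start at 64388353 and 28 exons. Peaks of all 3 antibodies lay over its starts. ACTL6A (chr14:64387700-64388356) had 26 fragments against 1.38 expected, an 11.36-fold enrichment and a -log10 q of 20.2, in the highest 2.81% of its list. BRG1 (chr14:64387446-64388364) had 24 against 1.65, in the highest 16.6%, and NRF2 (chr14:64387349-64388522) had 20 against 3.64, in the highest 42.5%. The NRF2 peak covered both other peaks in full. MTHFD1 was the only member whose ACTL6A peak had more fragments than its BRG1 peak at the same start, by 26 to 24, a difference that was not tested. By the study's methods the ACTL6A library was the less deeply sequenced of this pair. Without replicates, fragment counts of different antibodies do not show which protein bound more, and the part of depth in these counts was not tested.

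The MTHFD1 peaks held no ARE core near a summit. The NRF2 peak held one 549 bp from its summit, outside the other peaks. An E-box CACGTG, the element bound by MYC and USF proteins, lay 12 bp upstream of the MANE Select start inside all 3 peaks, 87 bp from the ACTL6A summit. The start of the pseudogene TEX21P lay within 1 kb of these peaks. Away from the starts, BRG1 peaks with 4 fragments each lay upstream (chr14:64381948-64382107) and in intron 6 (chr14:64417069-64417233). Downstream of the gene, BRG1 (chr14:64465204-64465764, 12 fragments) and ACTL6A (chr14:64465617-64465793, 4 fragments) shared 148 bp at the start of AKAP5, a scaffold protein of kinase signalling.

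MTHFD2 lies on the plus strand of chromosome 2 (chr2:74186172-74217565, ENSG00000065911), with a MANE Select start at 74198615 and 8 exons. Here the BRG1 peak was high and the other peaks were below the middle of the genes with such a peak. BRG1 (chr2:74198356-74199234) had 42 fragments against 1.94 expected, a 14.64-fold enrichment and a -log10 q of 37.1, in the highest 4.41% of its list. ACTL6A (chr2:74198133-74198646) had 9 against 0.576, in the highest 24.5%, and NRF2 (chr2:74198541-74199145) had 15 against 2.25, in the highest 49.3%. Among genes with a peak at a TSS, MTHFD2 ranked in the highest 13.3% for BRG1, 56.2% for ACTL6A and 58.9% for NRF2. The NRF2 summit lay 27 bp downstream of the start and the BRG1 summit 27 bp upstream, while the ACTL6A summit lay 75 bp upstream. The start of another annotated gene, ENSG00000279070, lay within 1 kb of each of these peaks, so they cannot be given to MTHFD2 alone.

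An ARE core centred 10 bp downstream of the MTHFD2 start, in the 5′ UTR of exon 1, lay inside all 3 peaks, 17 bp from the NRF2 summit, 37 bp from the BRG1 summit and 85 bp from the ACTL6A summit. It and the core at the far IDH1 start are printed, in capitals within their flanking bases, as sites inside peaks of all 3 antibodies that are not in the stretches above.
MTHFD2 start, chr2:74198611-74198639, minus strand: accgcgccggTGACTGCGCcgggagggaa
IDH1 far start, chr2:208266018-208266046, plus strand: acccatccgtTGACCCCGCatgcgtgacg
A further core (TGACCGAGC, intron 1) lay in the BRG1 and NRF2 peaks, and another (TGACGCCGC, upstream) in the ACTL6A peak alone. Farther upstream of the MTHFD2 start, with summits 19652 bp from it for BRG1 and NRF2, peaks of all 3 antibodies coincided at the start of MOB1A, a Hippo pathway gene. The BRG1 (chr2:74178833-74179108, 23 fragments) and NRF2 (chr2:74178833-74179282, 19 fragments) summits were at the same base, and the ACTL6A summit (chr2:74178902-74179087, 8 fragments) was 4 bp away. The last peak of the region was a BRG1 peak downstream of the gene (chr2:74221690-74221856, 7 fragments).

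**Figure D1:**
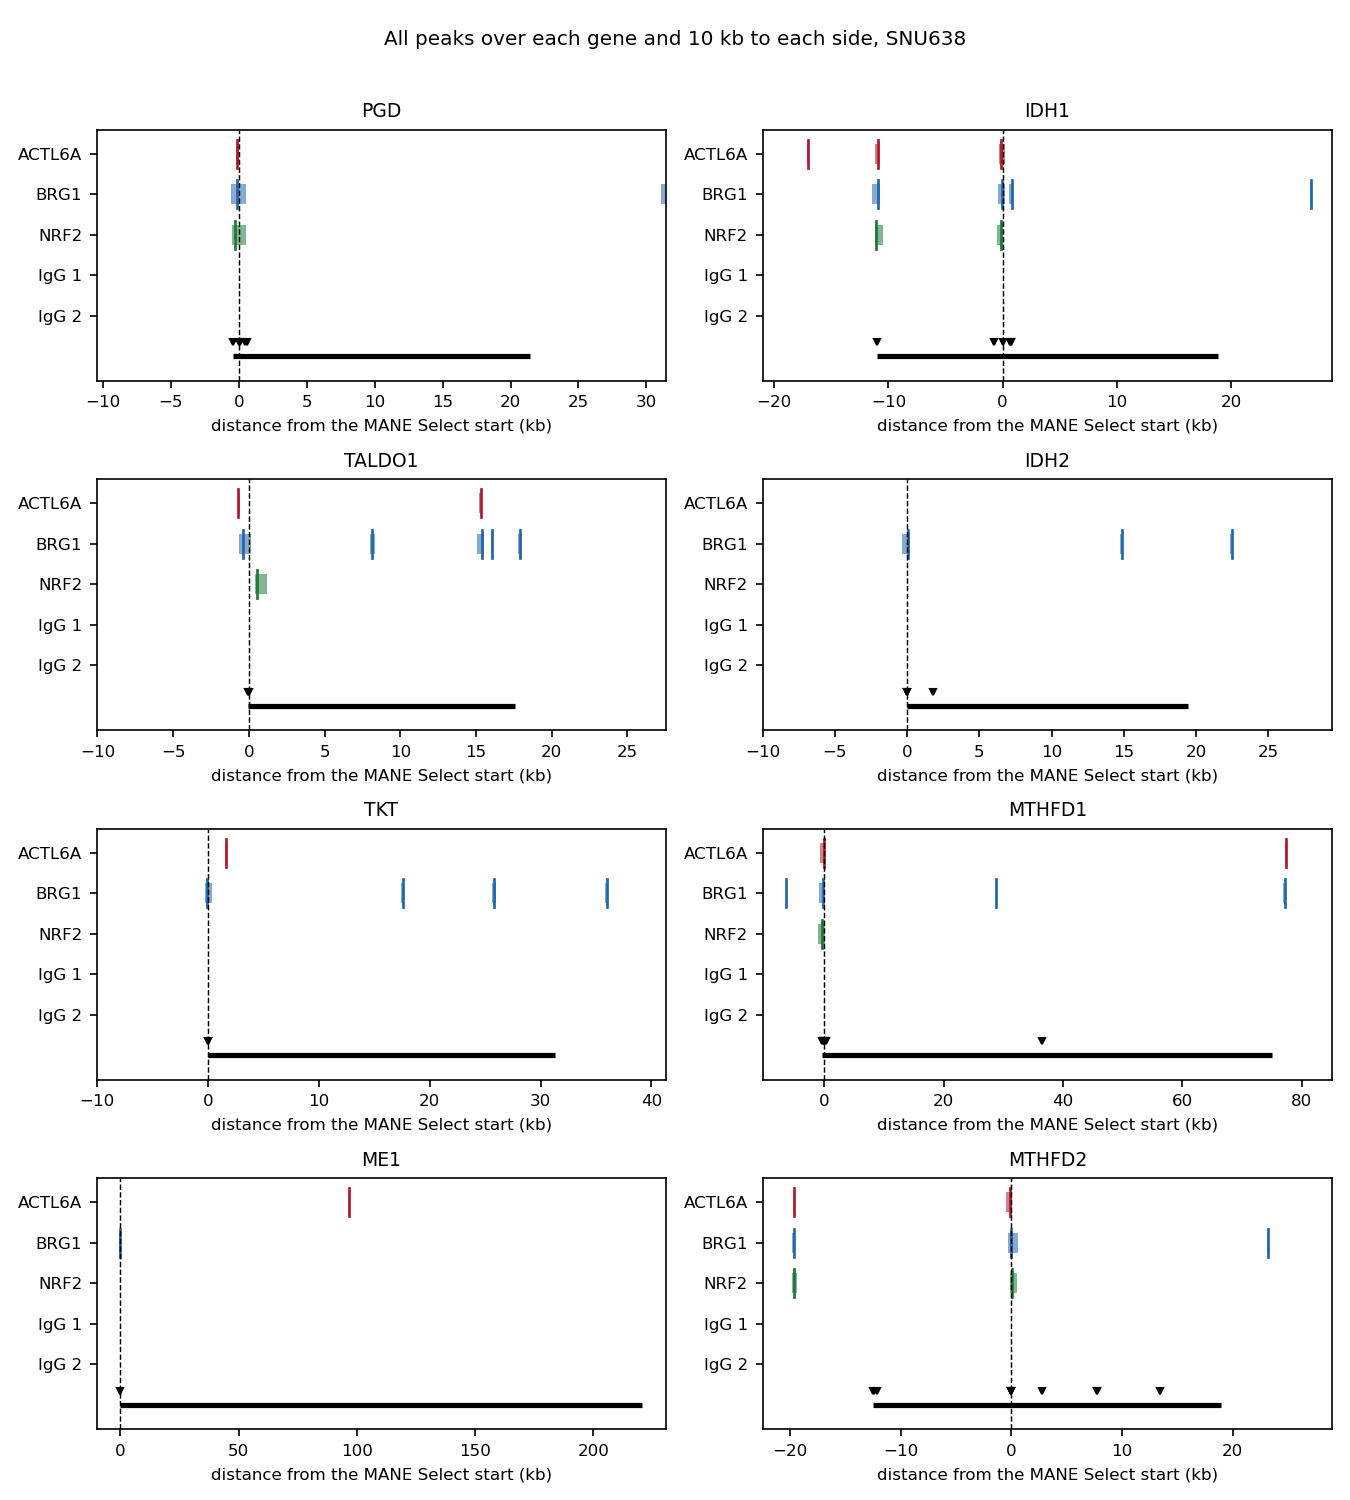
All 45 peaks over the 8 genes and 10 kb to each side, with the distance from the MANE Select start in kb on the horizontal axis (a different range for each gene) and 1 row per list; bars and ticks mark peaks and summits, triangles annotated starts and the black line the gene. NRF2 ticks sit at starts throughout, while BRG1 ticks are also spread over TALDO1, TKT, IDH2 and MTHFD1, and both IgG rows are empty.

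NRF2 peaks over these regions were found at annotated starts alone, and BRG1 peaks also away from them. Of the 7 NRF2 peaks, 6 were at a TSS of a member and 1 at that of MOB1A, in a list with 52.4% of its peaks at a TSS. Of the 12 ACTL6A peaks, 6 were at a member's own TSS, 2 at that of another gene and 4 elsewhere, against 30.3% of the list at a TSS. Of the 26 BRG1 peaks, 10, 3 and 13 were in these classes, against 31.1% of the list at a TSS. NRF2 peaks were thus more often at starts than BRG1 peaks over the whole lists too. The regions were set around genes and so all hold starts, while the whole lists also cover sequence far from genes. Peaks elsewhere were lower, with 3 to 8 fragments (median 5) for ACTL6A and 3 to 34 (median 10) for BRG1, against 5 to 28 (median 17.5) and 11 to 55 (median 28) at the members' own starts. All peaks of the lists had a median of 6 fragments for ACTL6A and 10 for BRG1, and those at a TSS 9 and 18. Lower peaks away from starts are thus not particular to these regions. At own starts the ACTL6A peaks had a median place in the highest 7.31% of the list, against 24.6% for all ACTL6A peaks at a TSS. For BRG1 the median place was 13.0% against 27.1%, and for NRF2 50.0% against 44.0%. IDH1 alone gave 2 of these ACTL6A peaks, 3 of the BRG1 peaks and 2 of the NRF2 peaks. Among genes with an ACTL6A peak at a TSS, IDH1 ranked in the highest 3.95%, MTHFD1 7.3%, PGD 21.9%, MTHFD2 56.2% and TALDO1 93.3%. The ACTL6A median thus does not hold for each gene.

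The peaks of the 3 antibodies overlapped at most starts of the members with all 3. At own starts 6 of 6 ACTL6A peaks overlapped a BRG1 peak by 1 bp or more (87.1% of all ACTL6A peaks at a TSS), and 5 of 6 with an NRF2 peak (48.2%). Of the 6 NRF2 peaks there, 5 overlapped an ACTL6A peak (70.0% of NRF2 peaks at a TSS) and 5 a BRG1 peak (94.9%). The exception in each count with NRF2 was TALDO1. Over the whole regions 9 of 12 ACTL6A peaks overlapped BRG1 (49.8% of the list) and 6 of 12 overlapped NRF2 (20.0%). For NRF2, 6 of 7 peaks there touched ACTL6A (49.8%) and 6 of 7 touched BRG1 (66.2%). These regions hold starts by choice, and overlap was more common at starts over the whole lists too. No member peak overlapped an IgG peak. An IgG 2 peak was overlapped by 1.74% of all ACTL6A peaks and 0.693% of all BRG1 peaks. The counts of 0 of 12 and 0 of 26 are thus near these shares. Of all NRF2 peaks 11.2% overlapped one of IgG 2, but of those at a TSS only 0.274% did, so 0 of 7 is near the share of any NRF2 peaks at starts.

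The ARE core was counted within 200 bp centred on each summit, on both strands. It was found at 4 of the 12 ACTL6A peaks (9.88% of the list), 4 of 26 BRG1 peaks (11.5%) and 3 of 7 NRF2 peaks (9.66%). All of these lay at starts of PGD, ME1, IDH1 and MTHFD2. Over the full width of the peaks, 5 of 7 NRF2 peaks held one (22.7% of the list), all at member starts (26.6% of NRF2 peaks at a TSS). The NRF2 peaks at own starts were 441 to 1174 bp wide, against a list median of 474 bp, and a wider peak holds more sequence. NRF2 peaks of TALDO1 and of the MOB1A start held none, and the 3 BRG1 peaks at starts without NRF2 included that of ME1 with its cores. AP-1 sites lay near 2 of 26 BRG1 summits (11.0% of the list), and near 0 of 12 ACTL6A (6.44%) and 0 of 7 NRF2 summits (3.37%).

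In RefSeq's promoter sequences for GRCh38.p14, which run from 250 bases before a start to 50 after it, all 8 genes were matched, by 9 promoters. For IDH2 the sequence is that of an alternative start inside the gene. The ARE core was in promoters of 4 of the 8 genes, PGD, ME1, IDH1 and MTHFD2, against 13.3% of 35116 promoters. AP-1 (TGACTCA) was in that of ME1 alone, within its ARE core, against 4.95% of promoters, and the E-box (CACGTG) in that of MTHFD1, against 7.26%. The cyclic AMP element TGACGTCA (1.85%) and the ATF4 element TGATGNAA (3.62%) were in none. The looser ARE form TGANNNNGC is in 41.8% of promoters and was in those of 5 of the 8 genes.

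Another 18 genes of the same pathways, among them further pentose phosphate, malic enzyme, isocitrate dehydrogenase, folate and NAD kinase genes, were counted in the same way. At a TSS, BRG1 had a peak at 16 of 18 (63.5% of all genes), ACTL6A at 9 (38.5%) and NRF2 at 6 (28.1%). The NRF2 count was near the share of all genes. All 3 lists had a peak at a TSS of 2 of the 18, against 22.1% of all genes. These were PGLS and RPIA, which act in the oxidative and the non-oxidative branch of the pentose phosphate pathway. PGLS had 6 ACTL6A, 29 BRG1 and 16 NRF2 fragments, and RPIA had 12, 41 and 16. No list had a TSS peak at ALDH1L1 and SHMT2, a cytosolic folate enzyme that makes NADPH and the mitochondrial serine hydroxymethyltransferase. Of the 9 genes with both ACTL6A and BRG1 at a TSS, 2 also had NRF2, against 5 of 5 of the members above and 60.0% of all such genes. The 8 and the 18 genes were both chosen with earlier results of these data known, so no test was made between them.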

How the data were processed

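CUT&Tag peak lists of 5 SNU638 libraries were used (ACTL6A, BRG1, NRF2, IgG 1 and IgG 2), grouped by the antibody in the labels. The authors mapped paired-end reads to hg38 (BWA) and used MACS2 for peak calling, with a q-value threshold of 0.05, on each library. The submitters' processing notes also name fastp 0.23.0, FastQC, deepTools and HOMER 4.11. The control given to the caller is not given in the sources used here. Each deposited list holds the caller's score, its fold enrichment (a ratio with a pseudocount of 1 in both terms), and its -log10 p and -log10 q. Duplicate treatment is not given in the sources used here, and the number of reads behind a peak is unknown except as recovered below.

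From the lists, positions were read on GRCh38, counted from 1, and set against GENCODE release 44. A peak was taken for a gene when it touched the annotated gene or 10 kb to each side, and was at a TSS within 1 kb of a protein-coding transcript's 5′ end. Overlap needed at least 1 bp. Ranks are by -log10 q within a list. Fragments at a summit are the integer that yields the deposited fold as well as the p-value, within 0.001 on the -log10 scale, found for at least 99.1% of each list, a measure chosen with the files seen. Motifs were searched on both strands in 200 bp about each summit, as ARE core TGACNNNGC (looser form TGANNNNGC), AP-1 TGACTCA, which the ARE core holds when GC follows it, E-box CACGTG, CRE TGACGTCA and ATF4 element TGATGNAA. Intervals are Wilson 95% intervals, which cover counting error only. No test was made. The routines were tested on simulated data.

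The members, the 18 further pathway genes, motifs and alternatives were chosen with earlier results of these data known. All 8 members are described with every peak. Of the pathway genes those with all 3 antibodies or none at a TSS are named, and other genes only where their start lies within 1 kb of a member's peak. Alternatives were a margin of 0 kb or 50 kb, the highest 5000 peaks, a -log10 q of 5 or more, other TSS distances (250 bp, 3 kb, 1 TSS per gene), an overlap of 50% of both peaks, each IgG library left out, other motif settings and ranks by fold. The scripts ran in Python 3.11.15 with pysam 0.24.0, pandas 2.3.3, SciPy 1.17.1, NumPy 2.4.6 and matplotlib 3.10.9. Sequences are from the GRCh38 reference, and promoter shares from RefSeq's table for GRCh38.p14.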

Additional observations from a re-analysis of the deposited data

How the results depend on the processing

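No paired analysis was possible because no antibody had a second library. Of 64 alternative values for 20 results, 30 moved beyond the Wilson 95% interval or, for a count, beyond 1.5-fold, 34 did not, and 0 reversed. BRG1 was at a TSS of all 8 members in every alternative except the highest 5000 peaks. TKT, ME1 and IDH2 had no NRF2 peak at a TSS in any alternative, which could not have been otherwise. Their nearest NRF2 peaks lay 91257 bp or more from the MANE Select starts, and the widest TSS distance was 3 kb. ACTL6A peaks had few fragments, which limits what a missing peak shows, and the effect of depth was not tested.

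With a margin of 0 kb the regions held 17 BRG1 peaks, and with 50 kb 25 ACTL6A, 60 BRG1 and 11 NRF2 peaks. With a -log10 q of at least 5, they held 6 ACTL6A peaks, and 23.7% (ACTL6A), 55.4% (BRG1) and 17.2% (NRF2) of all genes had a peak at a TSS. TALDO1 then left the members with all 3 lists, as it did at 250 bp. Among the highest 5000 peaks the regions held 4 ACTL6A and 5 BRG1 peaks. At a TSS 3 members then had ACTL6A (19.4% of all genes), 4 had BRG1 (19.0%), 4 had NRF2 (18.5%) and 2, PGD and IDH1, had all 3 (8.27%). Fewer peaks must lower these values. The share of all genes with ACTL6A, BRG1 and NRF2 at a TSS was 32.7%, 58.9% and 26.2% within 250 bp, and with 1 TSS per gene 34.7%, 60.0% and 26.1%. Within 3 kb it was 43.5%, 68.6% and 29.7%. With an overlap of 50% of both peaks, 4 of 12 ACTL6A peaks overlapped BRG1 (27.6% of the list), a count near that share. For NRF2, 3 of 7 peaks then overlapped ACTL6A (23.5% of the list) and 6 of 7 still overlapped BRG1 (43.7%). With TGANNNNGC, 10 of 26 BRG1 (34.8% of the list) and 5 of 7 NRF2 peaks (31.4%) held a match near the summit. The BRG1 count was near its list's share. With the ARE core over whole peaks, 5 of 7 NRF2 peaks held a match (22.7% of the list, 26.6% of those at a TSS). Leaving out either IgG library gave from 0 to 0 overlaps, which could not move.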
